A study of Mus musculus with 24 samples.

Results

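The matrix metalloproteinases (MMP), their tissue inhibitors (TIMP) and the ADAMTS proteases, named for a disintegrin and metalloproteinase domain with thrombospondin motifs, were described in endothelium and stroma of mouse bone marrow. The genes were taken by name, as every symbol that starts with Mmp, Timp or Adamts followed directly by a digit, which leaves out the ADAMTS-like genes. They were 46 of the 23879 symbols in the files, made up of 23 MMP, 4 TIMP and 19 ADAMTS genes. PolyA RNA from mice of strain C57BL/6J was sequenced as paired ends in 24 libraries that form 8 groups of 3. Bone marrow endothelial cells (BMEC) and bone marrow stroma (BMS) were each profiled in a first culture, called culture here, and in a second culture series. In the second series the cells were kept without other cells, called alone here, or together with hematopoietic stem and progenitor cells, called with HSPC here. The remaining groups are endothelium and stroma in vivo. Titles of all cultured groups, with or without HSPC, carry the name Akt1 with no word on what was done to that gene, and those of the in vivo groups do not. The setting and that unexplained name therefore cannot be told apart in any comparison of in vivo with culture. Headers of the endothelial in vivo columns carry the word Young, and no age is given. Separate animals or cultures are not named for the 3 libraries of a group. A p-value here therefore sets a difference against the spread among libraries within groups, which may be only technical.

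MMPs are zinc endopeptidases that cut collagens, proteoglycans and many cell surface and signaling proteins. Most are secreted as inactive precursors, and some stay anchored in the cell membrane. TIMPs bind the active site of MMPs, and TIMP3 also blocks several ADAM and ADAMTS enzymes. ADAMTS proteases are secreted and fall into groups by substrate: proteoglycans such as aggrecan and versican, the propeptides of fibrillar collagens, cartilage oligomeric matrix protein, and von Willebrand factor. In bone, MMP13 of hypertrophic chondrocytes and osteoblasts, MMP9 of osteoclasts and neutrophils, and MMP14 of stromal cells are known for the turnover of cartilage and bone matrix, and MMP9 for the release of soluble Kit ligand in the marrow.

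The values were FPKM (fragments per kilobase of transcript, scaled to the mapped fragments of a library), a level per length that can be compared between genes. Library totals ran from 1421447 to 1808592 FPKM, and 12447 to 13961 symbols reached 1 FPKM in a library. Read depth is unknown. The labelled cell types were checked with 12 endothelial markers such as Pecam1 and Cdh5, whose summed level was 11162 to 26036 FPKM in endothelial libraries and 55.96 to 425 in stromal libraries. A sum of 10 mesenchymal markers ran from 260.1 to 3079 FPKM in endothelium and from 4499.6 to 167562 in stroma. In the first culture 3 libraries, endothelium 2 and 3 and stroma 3, carried Xist at 1006 to 1249.8 FPKM with the Y-linked gene Ddx3y at 0, unlike the other libraries.

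Of the 46 genes, 38 reached 1 FPKM in some library, 20 reached 100 FPKM somewhere and 15 were at 1 or more in all 24 libraries. The 15 were Adamts1, Adamts4, Adamts5, Adamts6, Adamts7, Adamts9, Adamts10, Adamts12, Mmp2, Mmp11, Mmp14, Mmp28, Timp1, Timp2 and Timp3. At the other end, Adamts13, Adamts19, Mmp7, Mmp20, Mmp21 and Mmp27 were listed at 0 in all 24 libraries. Adamts20 did not pass 0.30 FPKM and Mmp1a did not pass 0.76. A library held 22 to 31 of the genes at 1 FPKM or more, and together they made up between 0.213% and 1.05% of its total. By group mean, 11 of the 38 were highest in stroma in vivo: the procollagen proteases Adamts2, Adamts3 and Adamts14, with Adamts10, Adamts15, Adamts18, Mmp8, Mmp9, Mmp13, Mmp17 and Mmp23. Endothelium in vivo was highest for Adamts1, Adamts5, Adamts7, Mmp15, Mmp25 and Timp4.

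**Figure D1:**
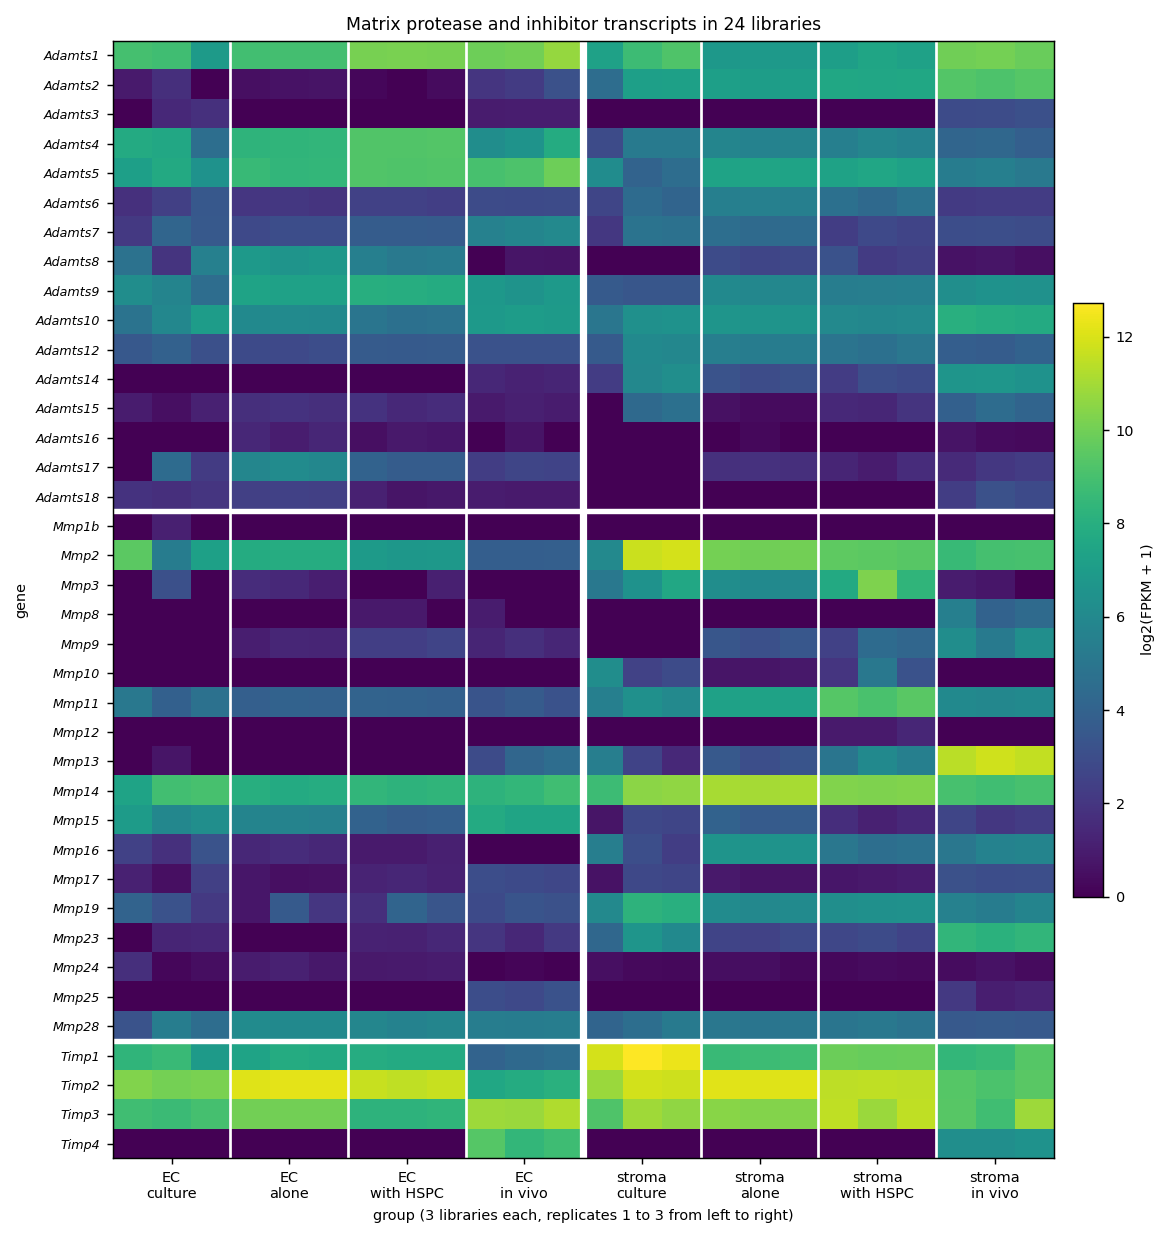
Heat map of log2(FPKM + 1) for the 38 genes that reached 1 FPKM in some library (rows) in the 24 libraries (columns, 3 per group); the thick vertical line parts endothelium (EC) from stroma. Timp4 and Mmp25 are filled only in the in vivo columns, and Mmp13 is brightest in the 3 libraries of stroma in vivo.

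Summed over its 23 genes, the MMP level was several times higher in stroma than in endothelium in the alone, HSPC and in vivo settings. It was 609 ± 11.1 FPKM (SD, n = 3) in endothelium alone and 3591 ± 106 in stroma alone. In vivo it was 661 ± 72.3 FPKM in endothelium and 4659 ± 376 in stroma, where Mmp13 made up 66.8% of the sum. The cell types overlapped in culture, at 1099.7, 640.01 and 809.9 FPKM in endothelium and 831, 5417 and 6078 in stroma. Mmp14 was the most abundant MMP by mean in each endothelial group, with 38.6% to 59.9% of the sum.

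The TIMP sum exceeded the MMP sum in every library outside stroma in vivo. In endothelium the ratio of the summed levels per library was 9.07 to 10.04 alone, 6.79 to 7.21 with HSPC, 3.77 to 4.54 in vivo and 1.85 to 2.96 in culture. In stroma it was 1.73 to 1.76 alone, 1.38 to 2.18 with HSPC and 1.68 to 7.51 in culture. Stroma in vivo held more MMP than TIMP transcript, at ratios of 0.29 to 0.72. The ADAMTS sum was 2721 ± 21.1 FPKM in endothelium with HSPC and 1567 ± 24.2 in endothelium alone, with the genes behind it described below. None of these sums was tested.

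**Figure D2:**
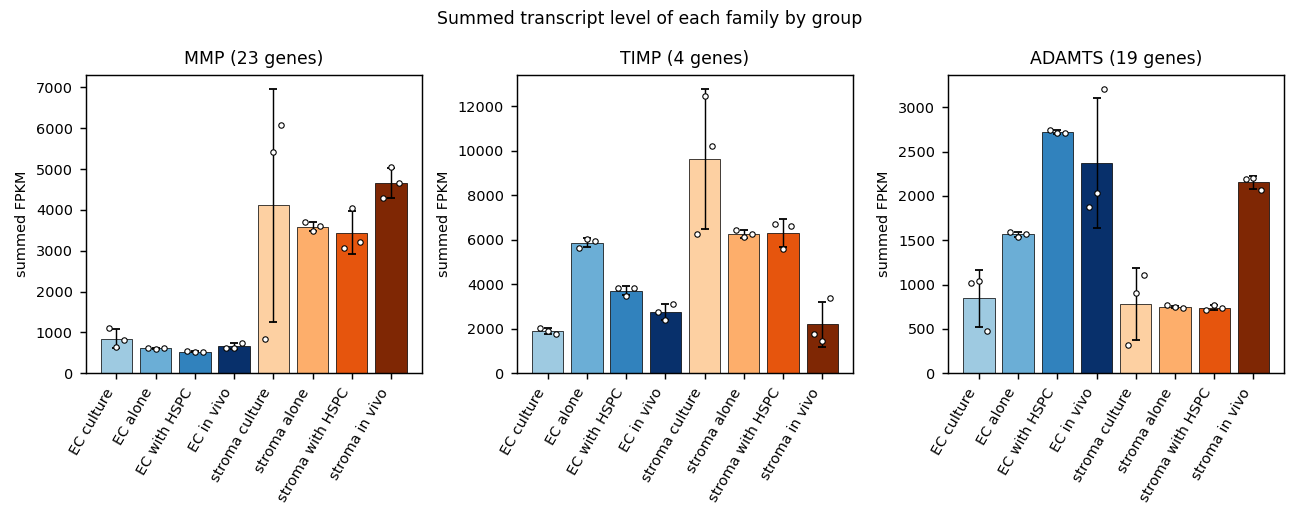
Summed FPKM of the 23 MMP, 4 TIMP and 19 ADAMTS genes by group, with bars for the mean of 3 libraries, error bars for the SD and points for single libraries. The highest ADAMTS bar is endothelium with HSPC, at 2721 ± 21.1 FPKM.

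Single genes were compared with limma on log2(FPKM + 1), over all symbols that reached 1 FPKM in at least 3 of the 12 libraries of a fit. A difference was called where the Benjamini-Hochberg adjusted p, taken over every symbol tested, was under 0.05. Differences below are on this log2 scale with the standard error, and understate changes of low genes. Comparisons that have a group in common share its libraries. The spread was pooled over the 4 groups of a fit, and a group listed at 0 in all its libraries adds none, which lowers the standard error. Among others, this holds for Mmp10 in endothelium and for Timp4, Mmp8, Mmp9 and Mmp25 in the first culture. It also holds for Mmp13 in endothelium of the second series, Mmp16 in endothelium in vivo and Adamts14 in cultured endothelium. Adamts3, Adamts8 and Adamts18 were likewise at 0 in stroma of the first culture.

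Between the cell types, genes of both protease families were called in both directions. In culture 18 of 34 genes were called, 6 higher and 12 lower, where 38.7% of all symbols tested were called (20.1% higher and 18.6% lower). In vivo 22 of 34 genes were called, 7 higher and 15 lower, where 49.3% of all symbols tested were called (25% higher and 24.2% lower). In the second series alone 28 of 31 genes were called, 11 higher and 17 lower, where 83.3% of all symbols tested were called (42% higher and 41.3% lower). With HSPC 30 of 31 genes were called, 13 higher and 17 lower, where 85.1% of all symbols tested were called (46.6% higher and 38.6% lower). Since most symbols of the second series differed between the cell types, its counts say little about these genes. Of 15 MMPs tested with the first culture and in vivo, 1 higher and 7 lower in endothelium were called in culture, and 3 higher and 8 lower in vivo. Of 13 MMPs tested in the second series, 2 higher and 9 lower were called alone, and 3 higher and 10 lower with HSPC. Of 15 ADAMTS genes tested in each setting, 5 higher and 3 lower were called in culture, 3 higher and 5 lower in vivo, 9 higher and 6 lower alone and 9 higher and 5 lower with HSPC. The families were not tested against each other.

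Adamts5 and Mmp15 were higher in endothelium in all 4 settings. Adamts2, Adamts14, Mmp11, Mmp13, Mmp19, Mmp23 and Timp1 were lower in all 4. Of these, the culture calls of Adamts5 and Mmp11 were lost without the 3 libraries that carry Xist (adjusted p = 0.0829 and 0.105), and that of Mmp13 with the spread taken only from the groups compared (0.0859). Adamts3, Adamts7, Adamts15, Adamts18 and Timp2 were called in opposite directions in different settings. The higher level of Timp2 in endothelium with HSPC was not called under trimmed-mean scaling (0.05, adjusted p = 0.391). The higher level of Adamts3 in endothelium in culture rests on 2 libraries, at 0, 1.77 and 2.37 FPKM, and leaving out endothelium culture 2 gave an adjusted p of 0.117 and endothelium culture 3 one of 0.128. The lower level of Adamts15 in endothelium in vivo was lost without endothelium in vivo 1 or 3 or stroma in vivo 2, at adjusted p of 0.0532, 0.0543 and 0.0622.

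Against culture, the in vivo libraries differed in both directions. In endothelium 16 of 34 genes were called, 10 higher and 6 lower, where 53.3% of all symbols tested were called (23.6% higher and 29.8% lower). In stroma 19 of 34 genes were called, 13 higher and 6 lower, where 55.4% of all symbols tested were called (24% higher and 31.4% lower). The shares called, 47.1% in endothelium and 55.9% in stroma, were near those over all symbols, so these totals say little about the genes. Genes called higher in vivo in both cell types were Adamts1, Adamts9, Mmp9, Mmp13, Mmp25 and Timp4, and Timp1 and Timp2 were lower in both. Adamts1 was not called in endothelium without endothelium in vivo 3 (1.72, adjusted p = 0.0588), nor in stroma without stroma culture 1 (0.97, adjusted p = 0.152). For the difference between these changes, 16 of 34 genes were called, 7 higher and 9 lower, where 33.5% of all symbols tested were called (16.4% higher and 17.1% lower). In stroma trimmed-mean scaling moved the median difference over all symbols by 0.20 and the share of symbols higher in vivo from 43.3% to 56.6%, with 13 of the genes then called higher and 5 lower.

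From culture to the alone group of the second series, 9 of 31 genes were called in endothelium, each of them higher, where 23.2% of all symbols were called (8.78% higher and 14.4% lower). In stroma 12 of 31 genes were called, 8 higher and 4 lower, where 33.8% of all symbols tested were called (16% higher and 17.8% lower). The endothelial count was 4 without any of the 3 alone libraries in turn and 14 without stroma culture 1. Trimmed-mean and quantile scaling shifted the endothelial median over all symbols by 0.11, moved the share of symbols that were higher from 37.8% to 55.3% and 52.2%, and gave 10 and 9 called genes.

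With HSPC, members were called in both directions in each cell type. In endothelium 23 of 31 genes were called, 11 higher and 12 lower, where 48.6% of all symbols tested were called (28.3% higher and 20.3% lower). In stroma 20 of 31 genes were called, 9 higher and 11 lower, where 61% of all symbols tested were called (25.6% higher and 35.4% lower), a share near the background. The median size of the difference over the 31 genes was 0.72 in endothelium, against 0.19 over all symbols, and 0.50 in stroma, against 0.27. For the difference between the cell types in this change, 26 of 31 genes were called, 12 higher and 14 lower, where 57% of all symbols tested were called (36% higher and 21.1% lower). Under quantile normalization the share of symbols higher in endothelium moved from 58.2% to 45.5%, with 10 of the genes higher and 12 lower.

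Adamts6, Adamts7, Adamts9, Adamts12 and Mmp14 rose in endothelium and fell in stroma with HSPC, while Adamts2 and Timp3 fell in endothelium and rose in stroma. The endothelial fall of Adamts2 lies below 1 FPKM, at 0.42, 0.55 and 0.59 FPKM alone and 0.18, 0 and 0.31 with HSPC. Adamts1 rose in both, and Adamts10, Adamts17, Mmp2, Mmp15, Mmp16 and Timp2 fell in both. Mmp16 was also low in endothelium, at 1.7, 2.11 and 1.65 FPKM alone and 0.87, 0.87 and 1.18 with HSPC. The stromal fall of Adamts17 was lost without stroma alone 2 or stroma with HSPC 2 (adjusted p = 0.0608 and 0.0743). With the spread taken from all 8 groups instead of 4, 7 genes were called in endothelium, 9 in stroma and 6 for the difference between them. Of the 7 opposite genes, Timp3 then kept its call in endothelium and Adamts7 its call in stroma, and the other calls were lost at adjusted p of 0.0857 to 0.787.

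The libraries with HSPC also carry RNA of blood cells. All 11 pan-hematopoietic markers, such as Ptprc, were above 0 with HSPC, and in stroma 7 of them reached a mean of 1 FPKM. They summed to 116 to 156 FPKM in endothelium and 27.1 to 36.3 in stroma, against 1.84 to 3.42 and 0 to 0.88 alone. Of 12 neutrophil markers 11 were at a mean of 1 FPKM or more with HSPC and Retnlg was at 0. Their sums were 1755 to 1979 FPKM in endothelium and 703 to 917 in stroma, against 49.6 to 57.4 and 16.8 to 20.1 alone. Ltf fell in endothelium (-0.57 ± 0.12, adjusted p = 0.00254) and Lcn2 was not called in stroma (1.32 ± 0.60, adjusted p = 0.0747). The other neutrophil markers tested were called higher with HSPC in each cell type. The 11 monocyte and macrophage markers summed to 409 to 431 FPKM in endothelium and 33.8 to 43.7 in stroma with HSPC, against 191 to 209 and 9.22 to 12.5 alone. With HSPC C1qa, C1qb, C1qc, Ly86 and Fcgr1 were at 0 in both cell types, and Emr1 and Cx3cr1 in stroma. Only 4 of the 11 reached a mean of 1 FPKM in endothelium with HSPC and 3 in stroma, against 3 in each alone. The part of these cells in the results was not tested. Fewer cells of a type and less RNA per cell cannot be told apart in bulk libraries.

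**Figure D3:**
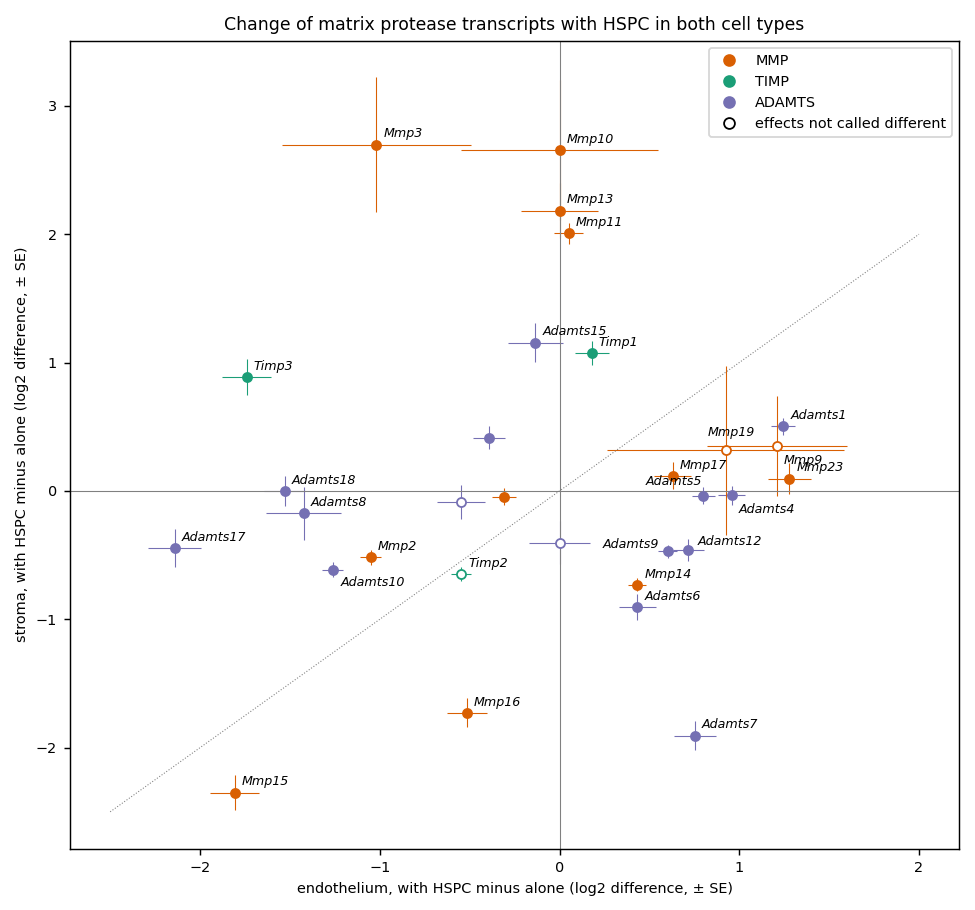
Change with HSPC in endothelium (horizontal) and in stroma (vertical) of the 31 genes tested, as log2 difference with its standard error; filled points are genes whose change was called different between the cell types, and the dotted line marks equal change. Timp3 lies at -1.74 in endothelium and 0.89 in stroma, and Adamts7 at 0.75 and -1.91.

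Of the inhibitors, Timp1 was higher in stroma than in endothelium in every setting, and highest in cultured stroma. It was 3839, 6814 and 5175 FPKM there, 400, 430.2 and 459 in stroma alone, 940.2, 863 and 915 with HSPC, and 340.2, 388 and 675 in vivo. In endothelium it was 316, 393 and 123 FPKM in culture, 166, 225 and 212 alone, 236, 220.4 and 222 with HSPC, and 15.9, 19.2 and 22.1 in vivo. The endothelial libraries lay below the stromal ones in every setting without overlap, and those in vivo were lowest. The difference between the cell types was -4.37 ± 0.42, adjusted p = 2.18e-05, in culture and -4.49 ± 0.42, adjusted p = 8.15e-06, in vivo. With HSPC Timp1 rose in stroma by 1.08 ± 0.10 (adjusted p = 2.02e-06), while the endothelial difference was 0.18 ± 0.10 (adjusted p = 0.145).

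Timp2, which also helps MMP14 to activate the precursor of MMP2, was the most abundant inhibitor of the second series by group mean. In stroma with HSPC 1 and 3 Timp3 was slightly above it, at 2899 and 2893 FPKM against 2865 and 2827. In endothelium Timp2 was 4413, 4755 and 4687 FPKM alone, 3285, 2942 and 3262 with HSPC, 1259, 1085 and 1150.1 in culture and 192, 228 and 272 in vivo. Stroma held 4653, 4355 and 4466 FPKM alone, 2865, 2892 and 2827 with HSPC, 1794, 3702 and 3478 in culture and 664, 553 and 711 in vivo. In both cell types the alone libraries were highest and the in vivo libraries lowest, without overlap. Timp2 fell with HSPC in both, at -0.55 ± 0.06 in endothelium and -0.65 ± 0.06 in stroma, and the difference between these changes was 0.10 ± 0.08 (adjusted p = 0.289). The endothelial fall was not called with the spread of all 8 groups (adjusted p = 0.0932). The difference of in vivo from culture was -2.34 ± 0.26 (adjusted p = 4.99e-05) in endothelium and -2.15 ± 0.26 (adjusted p = 7.38e-05) in stroma.

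Timp3, which is bound to the matrix and inhibits ADAMTS4, ADAMTS5 and ADAM17, moved in opposite directions with HSPC. Endothelium alone held 1051, 1032 and 1048 FPKM and endothelium with HSPC 304, 304 and 326. Stroma alone held 1398, 1327 and 1308 FPKM and stroma with HSPC 2899, 1832 and 2893. The groups did not overlap, with HSPC lower in endothelium and higher in stroma. The difference was -1.74 ± 0.14 (adjusted p = 1.32e-06) in endothelium and 0.89 ± 0.14 (adjusted p = 0.000175) in stroma, the latter with an adjusted p of 0.125 with the spread of all 8 groups. In vivo Timp3 was 1889, 1781 and 2377 FPKM in endothelium and 677, 448 and 1886 in stroma. These groups overlap through stroma 3, and the cell type difference was not called (1.27 ± 0.52, adjusted p = 0.0682). In culture it was 459, 415 and 496 FPKM in endothelium and 602, 1935 and 1551 in stroma. Endothelium was higher in vivo than in culture by 2.13 ± 0.52 (adjusted p = 0.00607), which was not called without the 3 libraries that carry Xist or with weights per group (adjusted p = 0.0686 and 0.0652).

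Timp4, the TIMP with the most restricted tissue distribution, was detected in vivo and not in culture. It was 673, 341 and 433 FPKM in endothelium in vivo and 76.6, 77.1 and 90.2 in stroma in vivo, and was listed at 0 in the other 18 libraries. Endothelium was higher than stroma in vivo without overlap, by 2.50 ± 0.22 (adjusted p = 6.46e-06). The in vivo libraries were above culture at an adjusted p of 2.06e-09 in endothelium and 7.74e-09 in stroma, and no fold is given against groups at 0. The loci of Timp1, Timp3 and Timp4 overlap the synapsin genes Syn1, Syn3 and Syn2. The 3 synapsin genes summed to 4.99 to 33.6 FPKM in a library, and whether the authors counted by strand is not stated.

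**Figure D4:**
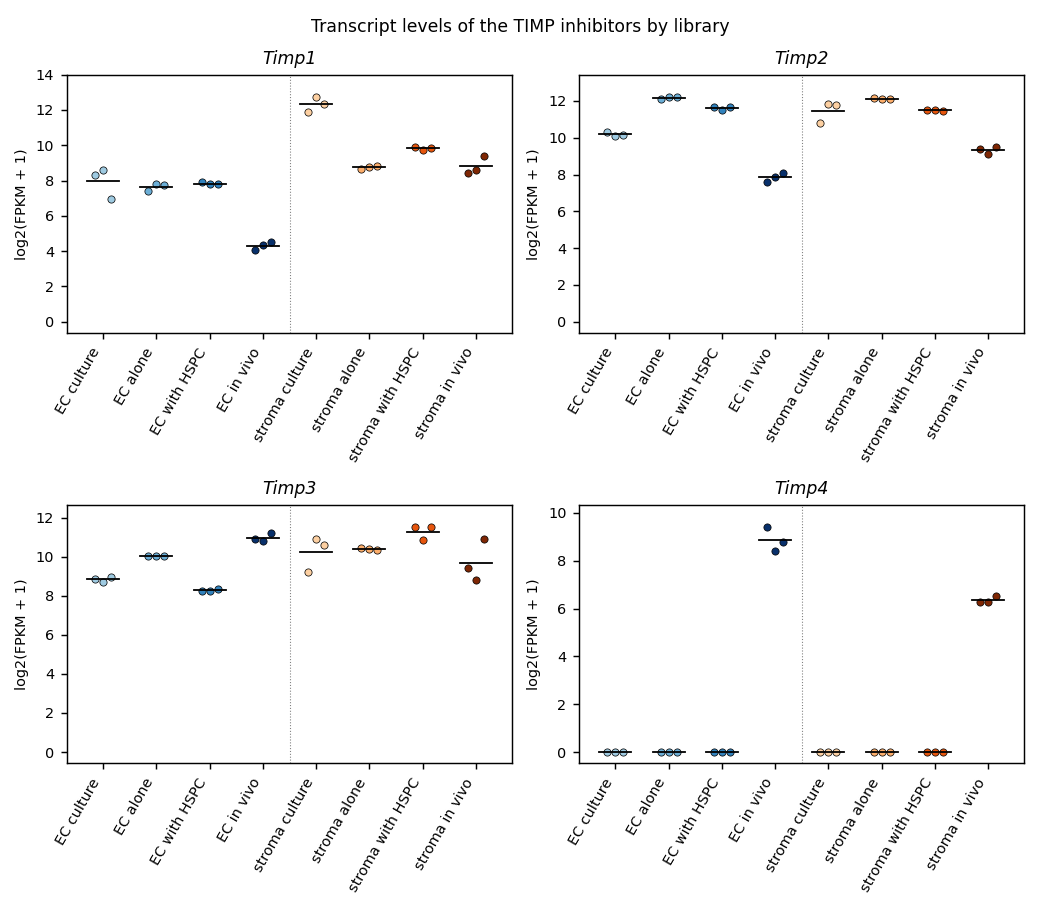
Level of Timp1, Timp2, Timp3 and Timp4 in each library as log2(FPKM + 1), by group, with a line at the mean of 3 libraries; the dotted line parts endothelium from stroma. Timp4 leaves 0 only in the in vivo groups, and Timp3 is lower in endothelium and higher in stroma with HSPC than alone.

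A cluster of 10 MMP genes, among them collagenases and stromelysins, lies on chromosome 9. Their order is Mmp13, Mmp12, Mmp1b, Mmp3, Mmp1a, Mmp10, Mmp8, Mmp27, Mmp20 and Mmp7, with no other protein-coding gene between them in the RefSeq annotation. Several of their promoters are known for AP-1 sites, the binding sites of Fos and Jun proteins. The motif TGANTCA, which is its own reverse complement, was searched in RefSeq windows from 250 bases before to 50 after each start (build GRCm38.p6). A window was available for 32 of the 46 genes, and 8 of the 32 held the motif in a window. All 8 belong to the 10 cluster genes, of which Mmp8 and Mmp27 held none. Counted by gene in the same way, 8.35% of the 16633 symbols of the files with a window held the motif. Counted by window, it stands in 7.81% of all windows. The 250 bases before the start of 4 neighbors are printed on the plus strand, with the motif in capitals, because the values of these genes in stroma with HSPC are described next. Mmp7 and Mmp20 also hold the motif and were listed at 0 in all 24 libraries, and Mmp1a and Mmp1b hold it and were at 0 in stroma with HSPC.
Mmp3, chr9:7445572-7445821: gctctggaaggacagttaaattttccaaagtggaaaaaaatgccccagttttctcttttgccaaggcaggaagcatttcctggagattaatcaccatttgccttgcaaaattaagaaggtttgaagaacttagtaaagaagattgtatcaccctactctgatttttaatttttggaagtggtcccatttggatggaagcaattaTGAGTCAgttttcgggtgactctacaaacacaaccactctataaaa
Mmp10, chr9:7502092-7502341: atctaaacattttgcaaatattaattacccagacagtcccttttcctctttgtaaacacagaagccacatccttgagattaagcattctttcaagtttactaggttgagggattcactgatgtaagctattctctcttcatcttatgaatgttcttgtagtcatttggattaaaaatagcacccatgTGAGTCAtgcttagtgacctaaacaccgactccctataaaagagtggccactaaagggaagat
Mmp13, chr9:7272264-7272513: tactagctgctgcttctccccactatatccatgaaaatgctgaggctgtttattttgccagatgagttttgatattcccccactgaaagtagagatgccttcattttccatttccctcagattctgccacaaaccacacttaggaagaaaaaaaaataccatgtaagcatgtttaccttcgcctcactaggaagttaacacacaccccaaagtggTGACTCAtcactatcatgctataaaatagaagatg
Mmp8, chr9:7558179-7558428: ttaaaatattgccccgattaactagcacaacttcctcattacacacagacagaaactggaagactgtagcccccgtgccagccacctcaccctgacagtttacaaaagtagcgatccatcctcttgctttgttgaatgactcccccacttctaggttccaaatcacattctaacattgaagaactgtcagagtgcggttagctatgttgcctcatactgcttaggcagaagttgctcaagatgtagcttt
The motif begins 46 bases before the start of Mmp3, 63 before that of Mmp10 and 35 before that of Mmp13. A match of letters is a description and does not show that a factor binds there.

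Mmp13, the main collagenase of mouse cartilage and bone, was the most abundant MMP of stroma in vivo. It stood at 2760.5, 3584 and 2988 FPKM there, and at 6.48, 17.2 and 22.2 in endothelium in vivo. Stroma in culture held 43.3, 4.94 and 1.8 FPKM, stroma alone 10.7, 7.39 and 8.83, and stroma with HSPC 30.1, 64.2 and 43.8. Endothelium in culture had 0, 0.66 and 0 FPKM, and its alone and with HSPC libraries were listed at 0. The 3 in vivo stromal libraries lay far above all others, and the stromal libraries with HSPC lay above those alone without overlap. Mmp13 was higher in stroma in vivo than in culture by 8.42 ± 0.83 (adjusted p = 1.59e-05) and rose with HSPC by 2.18 ± 0.21 (adjusted p = 4.51e-06). Bone and cartilage markers were read beside this level: the 10 osteoblast markers summed to 52114 to 71735 FPKM and the 11 chondrocyte markers to 7098 to 13882 in stroma in vivo, with none at 0. In cultured stroma the sums were 16257 to 92596 and 207 to 596 FPKM, with Ibsp and 5 chondrocyte markers at 0. The osteoblast sums overlap and the chondrocyte sums do not. Marker by marker, 8 of the 10 osteoblast markers were called higher in stroma in vivo than in culture, among them Bglap at 12.67 ± 0.77 and Bglap2 at 12.11 ± 0.60, while Spp1 was -1.48 ± 0.65 (adjusted p = 0.0749). The part of these cells in the Mmp13 level was not tested.

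Mmp3 and Mmp10, the stromelysins that cut proteoglycans, fibronectin and other MMP precursors, were stromal transcripts of culture. Mmp3 was 33.7, 88.7 and 199 FPKM in stroma in culture, 73.7, 65.2 and 63.2 alone, 213, 1245 and 324 with HSPC, and 0.97, 0.72 and 0 in vivo. Mmp10 was 75.3, 4.68 and 6.4 FPKM in stroma in culture, 0.65, 0.66 and 0.78 alone, 2.97, 32.8 and 8.09 with HSPC, and listed at 0 in vivo. With HSPC both were above the alone libraries without overlap, and 1 library, stroma with HSPC 2, was the highest of its group for Mmp3, Mmp10 and Mmp13 alike. Mmp3 rose by 2.70 ± 0.52 (adjusted p = 0.000889) and Mmp10 by 2.66 ± 0.55 (adjusted p = 0.00133). In endothelium Mmp3 did not pass 7.5 FPKM and Mmp10 was listed at 0 in all 12 libraries. The difference of Mmp3 in stroma in vivo from culture was -5.83 ± 0.82 (adjusted p = 0.000198). Mmp12, the macrophage elastase, was above 0 only in stroma with HSPC, at 0.89, 0.87 and 1.6 FPKM. Mmp1b reached 1.14 FPKM in endothelium culture 2 and was at 0 elsewhere. Mmp1a and Mmp1b are near copies, so their reads cannot be assigned with certainty.

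Mmp8 and Mmp9 are stored by neutrophils, as a collagenase and a gelatinase of their granules. Mmp8 was 43.8, 14.8 and 19.9 FPKM in stroma in vivo, 0.95, 0 and 0 in endothelium in vivo, 0.83, 0.80 and 0 in endothelium with HSPC, and 0 in the other libraries. Mmp9 was 75.5, 36.7 and 77.5 FPKM in stroma in vivo and 1.53, 2.24 and 1.62 in endothelium in vivo. It was listed at 0 in the first culture, 9.74, 7.75 and 10.02 in stroma alone and 4.48, 20.6 and 17.2 in stroma with HSPC. Both were higher in stroma than in endothelium in vivo without overlap (Mmp8 -4.30 ± 0.37, adjusted p = 4.37e-06, and Mmp9 -4.46 ± 0.26, adjusted p = 2.72e-07, endothelium minus stroma). In stroma in vivo the 12 neutrophil markers summed to 1724 to 3783 FPKM, with none at 0, and in endothelium in vivo to 282 to 402. Of the 12, 7 were called lower in endothelium in vivo, while Elane, Mpo and Ctsg were called higher there. The 6 osteoclast markers summed to 42.98 to 55.4 FPKM in stroma in vivo, with Oscar, Ocstamp and Dcstamp at 0. Only 1 of the 6 reached a mean of 1 FPKM there. Against cultured stroma Acp5 was higher in vivo (5.09 ± 0.40, adjusted p = 2.99e-06) and Atp6v0d2 lower (-2.75 ± 0.52, adjusted p = 0.00137). The 7 erythroid markers summed to 37135 to 44888 FPKM in stroma in vivo and 666 to 1303 in endothelium in vivo. The part of these cells in the Mmp8 and Mmp9 levels was not tested. In endothelium Mmp9 was 1.11, 1.55 and 1.46 FPKM alone and 4.23, 4.21 and 5.01 with HSPC, a difference of 1.21 ± 0.39 (adjusted p = 0.0239). That call was lost when any of those 6 libraries but endothelium alone 2 was left out, at adjusted p of 0.0516 to 0.0698.

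**Figure D5:**
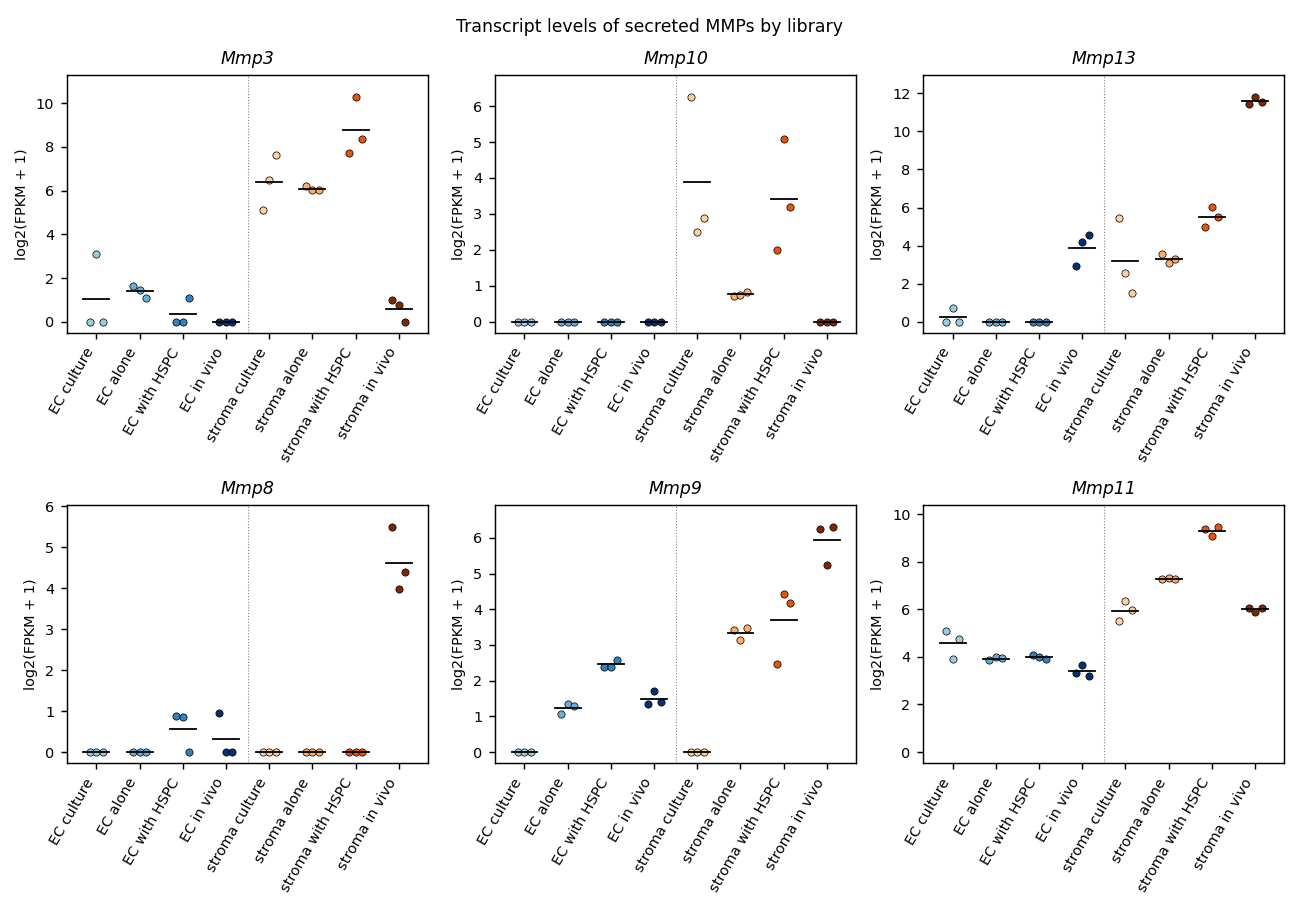
Level of 6 secreted MMPs in each library as log2(FPKM + 1), by group, with a line at the mean of 3 libraries; vertical scales differ between panels. Mmp13, Mmp8 and Mmp9 are highest in stroma in vivo, while Mmp3 and Mmp11 are highest in stroma with HSPC.

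Mmp2, the gelatinase that MMP14 activates, was called lower in endothelium in vivo, alone and with HSPC. It ran from 12.8 to 13.6 FPKM in endothelium in vivo and from 382 to 519 in stroma in vivo, a difference of -5.03 ± 1.43 (adjusted p = 0.0139). In culture the libraries overlapped, at 741, 39.4 and 151 FPKM in endothelium and 63.3, 3309.9 and 3869.6 in stroma. Mmp2 fell with HSPC from 226 to 237 FPKM down to 104 to 122 in endothelium (-1.05 ± 0.06, adjusted p = 7.24e-08). In stroma it fell from 989 to 1078 FPKM down to 683 to 752 (-0.52 ± 0.06, adjusted p = 1.45e-05). Neither fall was called with the spread of all 8 groups, at adjusted p of 0.682 and 0.85, nor was the difference alone (0.0906).

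Among the membrane-bound MMPs, Mmp14, a collagenase, was 2146, 2052 and 2113 FPKM in stroma alone and 1258, 1257 and 1281 with HSPC. Endothelium held 252, 217 and 235 FPKM alone and 329.5, 304 and 318 with HSPC. HSPC libraries thus lay below alone in stroma (-0.73 ± 0.05, adjusted p = 2.84e-07) and above it in endothelium (0.43 ± 0.05, adjusted p = 3.25e-05). With the spread of all 8 groups the adjusted p were 0.201 and 0.616. In vivo the cell types overlapped and the difference was not called (-0.46 ± 0.52, adjusted p = 0.502).

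Mmp15, a relative of Mmp14, was called higher in endothelium in all 4 settings, though below Mmp14 in level. It was 219.7, 172 and 173 FPKM in endothelium in vivo, 128, 58.04 and 76.6 in culture, 52.2, 51.2 and 46.8 alone and 14.9, 12.7 and 13.3 with HSPC. Stroma had 5.4, 3.22 and 3.88 FPKM in vivo, 0.65, 5.71 and 5.43 in culture, 15.3, 11.5 and 11.96 alone and 2.22, 1.25 and 1.76 with HSPC. Endothelium lay above stroma in each setting without overlap, by 5.21 ± 0.49 (adjusted p = 9.62e-06) in vivo. Mmp15 fell with HSPC in both, at -1.81 ± 0.13 (adjusted p = 7.89e-07) in endothelium and -2.35 ± 0.13 (adjusted p = 6.28e-08) in stroma.

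Mmp16, another membrane-type MMP, was a stromal transcript. It was 96.2, 91.6 and 87.6 FPKM in stroma alone, 32.1, 23.6 and 25.9 with HSPC, 32.7, 49.8 and 52.7 in vivo and 42.6, 7.4 and 3.98 in culture. In endothelium it did not pass 8.45 FPKM and was listed at 0 in vivo. The cell types overlapped in culture. It fell with HSPC in stroma, at -1.73 ± 0.11 (adjusted p = 1.82e-07), and the 3 alone libraries lay above the 3 with HSPC. Mmp25, a membrane-anchored MMP known from leukocytes, was 7.14, 6.1 and 8.21 FPKM in endothelium in vivo and 3.3, 1.08 and 1.44 in stroma in vivo, and 0 in the other 18 libraries. Endothelium in vivo was higher without overlap, by 1.54 ± 0.24 (adjusted p = 0.000388). Of the 12 neutrophil markers 7 were lower in endothelium in vivo and 3 higher, namely Elane at 2.08 ± 0.40, Mpo at 1.95 ± 0.33 and Ctsg at 1.76 ± 0.58, and their part in the Mmp25 level was not tested. Mmp17 ran from 5.63 to 8.03 FPKM in vivo and did not pass 5.8 in culture. Mmp24 did not pass 2.3 FPKM.

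Of the remaining MMPs, Mmp11, a stromelysin that is activated inside the cell by furin, had the smallest adjusted p of the 31 genes in stroma with HSPC. It was 156, 159 and 155 FPKM in stroma alone and 662, 548 and 703 with HSPC. In endothelium it was 13.6, 14.99 and 14.3 FPKM alone and 15.8, 14.8 and 13.98 with HSPC. The stromal groups did not overlap and the endothelial groups did. The difference was 2.01 ± 0.08 (adjusted p = 3.44e-09) in stroma and 0.05 ± 0.08 (adjusted p = 0.655) in endothelium, and these changes differed (-1.96 ± 0.11, adjusted p = 1.58e-07). In culture Mmp11 was 44.6, 81.8 and 62.0 FPKM in stroma and 32.8, 14.02 and 26.1 in endothelium. In vivo it was 66.1, 58.99 and 65.1 FPKM in stroma and 9.04, 11.8 and 8.14 in endothelium.

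Mmp23, a membrane-tethered MMP, was 333, 276 and 327 FPKM in stroma in vivo, 17.99, 99.5 and 65.4 in culture and from 4.68 to 6.62 in stroma of the second series. Endothelium did not pass 3.29 FPKM. The stromal levels of the 3 settings did not overlap, with in vivo above culture (2.64 ± 0.56, adjusted p = 0.0028) and alone below it (-3.01 ± 0.56, adjusted p = 0.00238). Mmp19 was 61.9, 304 and 265 FPKM in stroma in culture, 69.3, 61.4 and 66.7 alone, 77.8, 82.4 and 86.4 with HSPC and 46.9, 39.4 and 52.3 in vivo. In endothelium Mmp19 ranged from 0.69 to 16.3 FPKM, below every stromal library. Mmp28, known as epilysin, ran from 39.7 to 41.6 FPKM in endothelium in vivo and from 10.8 to 11.5 in stroma in vivo, a difference of 1.79 ± 0.45 (adjusted p = 0.00739). The Mmp23, Mmp19 and Mmp28 loci overlap other protein-coding genes (Mib2, Tmem198b and 1700020L24Rik).

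The proteoglycan-cutting ADAMTS genes Adamts1, Adamts4, Adamts5 and Adamts9 were the most abundant ADAMTS transcripts of endothelium with HSPC, and all 4 rose there. Adamts1, which cuts versican and aggrecan and binds vascular endothelial growth factor, was 468, 482 and 479 FPKM in endothelium alone and 1128, 1145 and 1119 with HSPC. In stroma it was 109, 113 and 113 FPKM alone and 142, 180.2 and 156 with HSPC. The groups did not overlap in either cell type. The rise was 1.24 ± 0.07 (adjusted p = 4.95e-08) in endothelium and 0.50 ± 0.07 (adjusted p = 4.6e-05) in stroma, and larger in endothelium by 0.74 ± 0.09 (adjusted p = 4.78e-05). With the spread of all 8 groups these 3 values had adjusted p of 0.0722, 0.478 and 0.489. In vivo Adamts1 was 977, 1046 and 1677 FPKM in endothelium and 1001, 1076 and 897 in stroma. In culture it was 504, 458 and 123 FPKM in endothelium and 153, 429 and 596 in stroma, so the cell types overlapped in both of these settings.

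Adamts4, an aggrecanase, was 315, 321 and 334 FPKM in endothelium alone and 623, 628 and 636 with HSPC. Stroma had 53.98, 48.7 and 51.3 FPKM alone and 44.1, 57.3 and 49.8 with HSPC. It rose without overlap in endothelium (0.96 ± 0.07, adjusted p = 1.14e-06), while the stromal groups overlapped (-0.03 ± 0.07, adjusted p = 0.746). The rise had an adjusted p of 0.451 with the spread of all 8 groups. In vivo it was 75.3, 91.8 and 224 FPKM in endothelium and 16.9, 18.0 and 13.3 in stroma, a difference of 2.78 ± 0.88 (adjusted p = 0.0229). Without endothelium in vivo 3 this was 2.31 (adjusted p = 0.0895), and without stroma in vivo 1, 2 or 3 the adjusted p was 0.0541, 0.0519 or 0.066. In culture it was 222, 195 and 22.98 FPKM in endothelium and 6.4, 36.7 and 37.5 in stroma, which overlap.

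Adamts5, the other main aggrecanase of the mouse, was 378, 327 and 346 FPKM in endothelium alone and 619, 597 and 612 with HSPC. In stroma it was 167, 173 and 167 FPKM alone and 159, 184 and 154 with HSPC. It rose in endothelium by 0.80 ± 0.07 (adjusted p = 1.69e-06), and in stroma the groups overlapped (-0.04 ± 0.07, adjusted p = 0.666), and the rise had an adjusted p of 0.209 with the spread of all 8 groups. In vivo Adamts5 was 524, 585 and 977 FPKM in endothelium and 39.2, 44.1 and 34.4 in stroma, the largest difference toward endothelium among the ADAMTS genes tested in that setting (4.06 ± 0.50, adjusted p = 6.47e-05). In culture it was 147, 209.6 and 90.2 FPKM in endothelium and 72.4, 15.8 and 22.6 in stroma, also without overlap (2.20 ± 0.50, adjusted p = 0.00585, or 0.0829 without the 3 libraries that carry Xist).

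Adamts9, which cuts versican and aggrecan, was 167, 154 and 155 FPKM in endothelium alone and 253, 240.01 and 231 with HSPC. Stroma held 64.3, 58.5 and 57.8 FPKM alone and 41.6, 43.2 and 44.7 with HSPC. It rose in endothelium (0.60 ± 0.05, adjusted p = 2.93e-06) and fell in stroma (-0.47 ± 0.05, adjusted p = 1.37e-05), each without overlap. With the spread of all 8 groups the adjusted p were 0.133 and 0.188. In culture Adamts9 was 73.5, 52.4 and 22.8 FPKM in endothelium and 11.1, 9.44 and 9.7 in stroma. In vivo it was 109, 91.98 and 117 FPKM in endothelium and 76.2, 88.8 and 85.6 in stroma.

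Adamts8, a member of the same branch, went the other way. It was 118, 95.2 and 106 FPKM in endothelium alone, 44.8, 33.97 and 38.4 with HSPC, 26.9, 2.75 and 46.5 in culture and 0, 0.63 and 0.57 in vivo. Stroma was listed at 0 in culture, ran from 3.62 to 8.13 FPKM in the second series and from 0.43 to 0.63 in vivo. Adamts8 fell in endothelium with HSPC without overlap, at -1.42 ± 0.21 (adjusted p = 0.000188), with an adjusted p of 0.122 with the spread of all 8 groups. Its difference in vivo from culture was -3.64 ± 0.72 (adjusted p = 0.00185). Adamts15, also of this branch, was 14.2, 21.5 and 16.2 FPKM in stroma in vivo and 0, 19.6 and 25.3 in cultured stroma, and did not pass 2.8 FPKM elsewhere.

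The procollagen N-proteases Adamts2, Adamts3 and Adamts14, which remove the amino-terminal propeptide of fibrillar collagens, were highest in stroma in vivo. Adamts2 was 652, 569 and 669.9 FPKM there, 22.7, 143 and 152 in culture, 146, 137 and 137 alone and 191, 183 and 188 with HSPC. In endothelium it was 2.89, 3.57 and 7.88 FPKM in vivo, 0.88, 2.24 and 0 in culture, and did not pass 0.59 in the second series. All 12 stromal libraries lay above all 12 endothelial ones, and the in vivo difference was -6.86 ± 0.68 (adjusted p = 1.34e-05). Adamts14 was 99.5, 102 and 89.1 FPKM in stroma in vivo, 3.78, 61.3 and 77.5 in culture, 8.55, 6.85 and 7.68 alone and 3.75, 7.26 and 6.19 with HSPC. Endothelium had 1.65, 1.35 and 1.46 FPKM of Adamts14 in vivo and 0 in the other 9 libraries. Adamts3 was 6.5, 6.82 and 7.61 FPKM in stroma in vivo, 0 in the other 9 stromal libraries and from 0 to 2.37 in endothelium. With HSPC Adamts2 rose in stroma by 0.41 ± 0.09 (adjusted p = 0.00196), which was not called with a pseudocount of 0.1 (adjusted p = 0.391) or with the spread of all 8 groups (adjusted p = 0.664). Endothelium in vivo held 0.758% of the stromal level of Adamts2, 0.491% of that of Mmp13 and 0.839% of that of Mmp23. It held 1.13% of the stromal sum of 10 mesenchymal markers, 0.516% of that of 10 osteoblast markers and 0.151% of Col1a1. The share was lower for the 11 chondrocyte markers, at 0.0471%. It was higher for other genes called lower in endothelium in vivo, at 1.54% for Adamts14, 2.82% for Mmp2 and 4.07% for Timp1. The part of stromal RNA in these endothelial values was not tested.

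Adamts7 and Adamts12, which cut cartilage oligomeric matrix protein, changed in opposite directions with HSPC. Adamts7 was 6.07, 6.97 and 7.15 FPKM in endothelium alone and 12.1, 12.1 and 11.8 with HSPC. In stroma it was 23.5, 20.2 and 21.1 FPKM alone and 4.0, 6.09 and 5.18 with HSPC. The order of the cell types was thereby turned, with stroma above endothelium alone (-1.55 ± 0.12, adjusted p = 1.06e-07) and endothelium above stroma with HSPC (1.11 ± 0.12, adjusted p = 2.24e-06). The changes were 0.75 ± 0.12 (adjusted p = 0.000254) in endothelium and -1.91 ± 0.12 (adjusted p = 9.81e-08) in stroma. With the spread of all 8 groups the endothelial rise and the order with HSPC were not called (adjusted p = 0.468 and 0.0758). In vivo Adamts7 was 47.4, 55.4 and 62.3 FPKM in endothelium and 6.94, 7.45 and 6.89 in stroma, higher in endothelium by 2.78 ± 0.70 (adjusted p = 0.00746). In culture it was 3.33, 16.6 and 10.9 FPKM in endothelium and 3.14, 27.99 and 26.2 in stroma, which overlap. Adamts12 ran from 6.1 to 7.17 FPKM in endothelium alone and from 11.1 to 11.6 with HSPC, and in stroma from 39.05 to 42.04 alone and from 25.3 to 32.5 with HSPC.

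Adamts6 and Adamts10, a related pair that acts on fibrillin microfibrils of the matrix, differed. Adamts6 was 44.4, 45.9 and 44.8 FPKM in stroma alone and 25.4, 19.3 and 26.9 with HSPC, a difference of -0.90 ± 0.10 (adjusted p = 1.68e-05), or an adjusted p of 0.0857 with the spread of all 8 groups. It ran from 3.43 to 3.81 FPKM in stroma in vivo, from 5.4 to 20.6 in cultured stroma and from 2.35 to 10.6 in endothelium. Adamts10 was highest in stroma in vivo, at 217 to 258 FPKM, and fell with HSPC in endothelium from 63.9 to 67.9 down to 25.04 to 29.4 FPKM (-1.26 ± 0.06, adjusted p = 1.82e-08). Adamts17, whose loss in people causes short stature with lens defects, was 55.7, 69.8 and 58.8 FPKM in endothelium alone and 15.03, 12.2 and 12.2 with HSPC. It was 0, 21.2 and 3.7 FPKM in endothelium in culture, 3.93, 5.24 and 4.98 in vivo, and did not pass 3.73 in stroma. Its fall with HSPC in endothelium was the largest of the 31 genes there (-2.14 ± 0.15, adjusted p = 4.6e-07). Adamts18 ran from 4.34 to 4.56 FPKM in endothelium alone and from 0.65 to 1.26 with HSPC, and from 4.05 to 7.9 in stroma in vivo. Adamts16 did not pass 1.66 FPKM in any library. Adamts13, the protease of von Willebrand factor known from hepatic stellate cells, was listed at 0 throughout, while Vwf itself ran from 207 to 229 FPKM in endothelium alone and from 45.3 to 60.8 with HSPC.

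Other genes of matrix proteolysis were read from lists. Over all symbols 48.6% were called with HSPC in endothelium and 61% in stroma, so a list with about that share of calls shows nothing particular. Of 10 activators, inhibitors and clearance receptors, 8 were tested with HSPC, of which 2 rose and 2 fell in endothelium and 4 rose and 3 fell in stroma. Bsg, which encodes the MMP inducer basigin, rose in endothelium from 1251, 1128 and 1202 FPKM to 3257, 3322 and 3092. In stroma it rose from 2003, 2032 and 2059.99 FPKM to 8162, 9842 and 8775. These are log2 differences of 1.43 ± 0.07 (adjusted p = 2.04e-08) and 2.13 ± 0.07 (adjusted p = 5.72e-10), with no overlap. Pcsk6, a proprotein convertase, rose in stroma by 1.95 ± 0.08 (adjusted p = 4.71e-09), from 48.95 to 52.7 FPKM up to 175 to 226. Pcsk5 of the same family fell in both, at -2.88 ± 0.16 in endothelium and -1.28 ± 0.16 in stroma, the latter at an adjusted p of 0.297 under the spread of all 8 groups. Among genes of plasminogen activation, Plau fell in stroma and Serpine2 fell in endothelium. Both falls were lost under the spread of all 8 groups (adjusted p = 0.719 and 0.385).

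Of the 5 ADAMTS-like genes and papilin, which resemble ADAMTS proteases but lack the protease domain, 5 were tested with HSPC. In stroma 4 rose and 1 fell, with Adamtsl2 at 2.19 ± 0.27 and Adamtsl5 at 1.53 ± 0.13, and in endothelium 1 rose, Adamtsl1 at 1.01 ± 0.09. The rise of Adamtsl3 in stroma was lost without any library of its 2 groups but stroma with HSPC 2 (adjusted p = 0.0539 to 0.13). Of 8 ADAM sheddases, 4 rose and 1 fell in endothelium, and 3 rose and 2 fell in stroma, where 48.6% and 61% of all symbols were called. Adam12 went in opposite directions, at -0.87 ± 0.11 in endothelium and 1.60 ± 0.11 in stroma, with adjusted p of 0.44 and 0.0564 under the spread of all 8 groups. Of 4 cathepsins, Ctss and Ctsb rose in endothelium, and in stroma Ctsl rose and Ctsb fell, the last a call lost without any of 4 single libraries (stroma alone 1 or 3, stroma with HSPC 1 or 3) at adjusted p of 0.0543 to 0.0854. Of the 10 matrix substrates 9 were tested: 5 fell in endothelium, with Vwf at -2.06 ± 0.15, and in stroma 4 rose and 1 fell, with Vcan at 1.12 ± 0.15.

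In vivo, the plasminogen activators Plau and Plat stood on the endothelial side and the protease inhibitor Serpine2 on the stromal side. Plau was 236, 204 and 199 FPKM in endothelium and 5.42, 4.94 and 6.02 in stroma (5.05 ± 1.09, adjusted p = 0.003), and Plat was higher in endothelium by 3.17 ± 0.32. Serpine2 was 50.96, 64.6 and 121 FPKM in endothelium and 10376, 9221 and 10089 in stroma (-7.05 ± 0.65, adjusted p = 7.38e-06). The groups of Plau and of Serpine2 did not overlap. Papln, the gene of papilin, was 133, 116 and 129.9 FPKM in endothelium in vivo and 0.26, 0.24 and 0.35 in stroma, and did not pass 2.41 FPKM in any cultured library (in vivo difference 6.63 ± 0.24, adjusted p = 7.47e-09). Of the 10 matrix substrates, Vwf and Col4a1 were higher in endothelium in vivo and 7 were lower, among them Col2a1, Col1a1 and Comp. The call of Col4a1 was lost without any of the 6 in vivo libraries, at adjusted p of 0.0841 to 0.116, and without endothelium culture 2 (0.0525). The collagen-degrading cathepsin Ctsk was lower in endothelium (-6.18 ± 0.63, adjusted p = 1.71e-05), while Ctsl, Ctss and Ctsb were higher, though Ctss not with a pseudocount of 0.1 (adjusted p = 0.0707) and Ctsb not under quantile normalization (0.064).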

How the data were processed

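PolyA RNA was extracted with Trizol and sequenced as paired ends with TruSeq kits, per the labels' protocols. The deposited values are FPKM per gene symbol; the submitters' processing notes name TopHat, Cufflinks and mouse build mm9, without versions. Whether the authors scaled these values further is not stated. Low values showed no steps of single reads (the fullest bin held 2.93% to 7.65% of values), so depth is unknown and no counting interval is given.

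Groups came from the titles. Values were used as deposited, on the scale log2(FPKM + 1). With limma 3.58.1 in R 4.3.3 (lmFit, eBayes with a trend), 3 fits of 12 libraries covered 12 comparisons, 2 of them interactions: the first culture with in vivo, alone with HSPC co-culture, and the first culture with alone. Symbols at 1 FPKM or more in at least 3 libraries of a fit were tested, two-sided, and Benjamini-Hochberg adjustment ran over all of them, with a threshold of 0.05. The scripts were tested on simulated data. Promoter windows came from RefSeq (GRCm38.p6), matched by symbol, and figures from Python 3.11.15 with matplotlib 3.10.9.

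Values in every library were given for the TIMP genes and for the 4 largest rises and 4 largest falls of a comparison among called genes with groups that did not overlap and a mean of at least 5 FPKM in the higher group. Mmp2, Mmp12, Mmp14, Adamts3 and Adamts15, outside this rule, were given by library after their values were seen, as were Xist and Ddx3y. From lists of other matrix genes up to 3 called genes per comparison were to be named; Adamtsl3, Ctsb, Ctss and Ctsl were named beyond it. The members and all 16 lists (134 genes) were chosen with earlier results of these data known. Alternatives tried were another pseudocount (0.1), filters at none and at 5 FPKM, trimmed-mean scaling, quantile normalization, fits of the compared groups only or of all 8, group weights, a block for the replicate number, and leaving out each library. Leaving out the 3 Xist-carrying cultured libraries was added after seeing the data.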

Additional observations from a re-analysis of the deposited data

Results flagged for a closer look

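For 42 results the effect differed between endothelium and stroma by the test of the difference itself, an interaction in limma with a Benjamini-Hochberg adjusted p under 0.05. All values are differences of log2 differences, endothelium minus stroma, and several involve groups listed at 0, where they depend on the pseudocount of 1.

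The change from culture to in vivo differed for 16 genes. It was higher in endothelium for 7, by 4.80 for Mmp3, 3.88 for Mmp10, 3.40 for Adamts7, 2.68 for Timp3, 2.50 for Timp4, 2.02 for Mmp28 and 1.54 for Mmp25. It was lower in endothelium for 9, at -4.79 for Mmp13, -4.46 for Mmp9, -4.38 for Mmp16, -4.30 for Mmp8, -4.25 for Adamts8, -3.69 for Adamts18, -3.07 for Adamts3, -1.71 for Adamts9 and -1.24 for Mmp11. Timp4, Mmp25, Mmp8 and Mmp9 are at 0 in the first culture of both cell types, so their values equal the difference between the cell types in vivo. Mmp10 was at 0 in endothelium and in stroma in vivo, and its value is the level of cultured stroma. Without the 3 cultured libraries that carry Xist, the values of Mmp13, Timp3 and Mmp25 had adjusted p of 0.0667, 0.118 and 0.0501.

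The change with HSPC differed for 26 genes. It was higher in endothelium for 12, by 2.66 for Adamts7, 1.34 for Adamts6, 1.21 for Mmp16, 1.18 for Mmp23, 1.18 for Adamts12, 1.17 for Mmp14, 1.07 for Adamts9, 0.99 for Adamts4, 0.84 for Adamts5, 0.74 for Adamts1, 0.54 for Mmp15 and 0.51 for Mmp17. It was lower in endothelium for 14, at -3.72 for Mmp3, -2.65 for Mmp10, -2.63 for Timp3, -2.18 for Mmp13, -1.96 for Mmp11, -1.69 for Adamts17, -1.53 for Adamts18, -1.29 for Adamts15, -1.25 for Adamts8, -0.90 for Timp1, -0.81 for Adamts2, -0.65 for Adamts10, -0.54 for Mmp2 and -0.26 for Mmp28. Mmp13 and Mmp10 are at 0 in endothelium of this series, and their values are those of the stromal change. The neutrophil and pan-hematopoietic marker sums were higher with HSPC in both cell types, and their part in these values was not tested.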

How the results depend on the processing

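Of the 239 called differences of single genes, 148 held in every alternative run, 28 were lost without some library, 54 with the spread of all 8 groups and 36 with another setting, some of them under several, and none changed direction, nor did any called gene of the other matrix lists. Of 113 alternative counts of called genes other than those leaving out a library, 3 moved by over 1.5 times. These came from the fit of all 8 groups, which gave 7, 9 and 6 called genes with HSPC in endothelium, in stroma and for their difference, against 23, 20 and 26. The cause was not tested. Leaving out each library in turn gave 14 to 22, 19 to 24, 26 to 28 and 27 to 30 called genes between the cell types in culture, in vivo, alone and with HSPC. It gave 14 to 20 and 14 to 24 for in vivo against culture in endothelium and stroma and 12 to 20 for their difference. For the HSPC effects in the same order the ranges were 21 to 24, 19 to 21 and 24 to 26. For alone against culture they were 4 to 14 and 9 to 16, where the endothelial 4 came without any alone library and the 14 without stroma culture 1. With the replicate number as a block, 6 of the 239 calls were lost. The block gave counts of 20, 22, 28 and 29 between the cell types in the same order, 15, 17 and 16 for in vivo, 23, 20 and 26 for HSPC, and 9 and 11 from culture to alone. Libraries with the same number correlated at -0.158 to 0.120 in their deviations from the group means, so the numbers are not read as pairs. Depth is unknown, and 3 libraries a group limit all tests.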
